A study of Mus musculus with 22 samples.

Results

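A set of 9 genes, 8 of them markers of fibroblasts and the other Nnmt, was followed through experimental granulation tissue of Mmp13-/- (KO) and wild type (WT) mice. The genes were Dpt, Pi16, Clec3b, Dpp4, Fap, Thy1, S100a4, Pdpn and Nnmt, 9 of the 18193 genes that had a probe set of their own on the array. Every probe set annotated to one of them alone was taken, which gave 13 of the 45037 probe sets analysed, and a gene is represented here by its brightest probe set unless another is named. The markers were taken for what they label, though with earlier results of these data known. Nnmt was chosen by its measured signal, which was lower in Mmp13-/- tissue at 21 d. The 21 d values of Nnmt are therefore given as a description, with no test.

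Fibroblasts are the cells that build and remodel the matrix of a healing wound, and they are not of one kind. Cells of the adventitia and of the deep fascia, which carry Pi16, Dpp4, Dpt and Clec3b in mouse, are regarded as a reserve, whereas activated fibroblasts of wounds and tumours turn on Fap together with contractile and fibrillar collagen genes. Thy1, S100a4 and Pdpn are broader labels that are also found on other cells. Nnmt encodes nicotinamide N-methyltransferase, an enzyme that uses the methyl donor S-adenosylmethionine and is known in activated stromal cells.

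Tissue grew into viscose cellulose sponges placed under the back skin of male mice 5 to 8 weeks old, and RNA came from the ends of the sponge. Mmp13-/- tissue was compared with WT tissue at 7 d (3 arrays each), 14 d (4 each) and 21 d (4 each), 22 arrays in all, each from a separate mouse. Both genotypes received the same sponge and no other treatment, the labels give all mice a mixed C57BL/6 x 129 background, and the design text gives at least 7 generations of backcrossing to C57BL6 for the knockout, with WT mice bred from the backcrossed heterozygotes. All 7 d arrays and replicates 1 to 3 of 14 d were of hybridization series 1 (2 µg RNA, one-cycle labelling), and replicate 4 of 14 d and all 21 d arrays were of series 2 (250 ng RNA, 3' IVT Express kit). Day and series are thus nearly the same split, and the step to 21 d rests on the 2 replicate 4 arrays of 14 d.

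Values are log2 signals after robust multi-array average (RMA) normalization, so that a difference of 1 is a 2-fold change. Mmp13 itself lay between 7.62 and 8.63 in the Mmp13-/- arrays and between 10.26 and 12.02 in the WT arrays, with no overlap. General fibroblast genes were bright in every group, with a mean over 19 genes between 10.32 and 10.79 on every array. The third WT array of 21 d stood apart, with the narrowest spread of values (SD 2.20) and the lowest mean correlation with its own group (r = 0.98). Keratinocyte markers, 8 of 10 of them dim, had a list mean of 3.53 to 3.78 on the 4 Mmp13-/- arrays of 14 d. On the WT arrays of that day it was raised in replicates 1 and 3 (5.19 and 5.55) and was 3.85 and 3.90 in the other two. In bulk tissue, fewer cells of a type and less RNA per cell cannot be told apart.

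The stretch of DNA before the start site was read for the 2 pairs of genes whose signals ran closest together over the arrays, Pi16 with Dpp4 and S100a4 with Pdpn, to show what these pairs do and do not share in sequence. The windows are those of RefSeq on GRCm38.p6, 5 of the 9 genes had an entry, and only bases outside annotated genes are printed. For Pi16 and Dpp4 this left 164 and 166 bases, without those nearest the start. Each is written 5′ to 3′ on the strand of the gene, with matches to the motifs searched in capitals.
Pi16, chr17:29318632-29318795 (+): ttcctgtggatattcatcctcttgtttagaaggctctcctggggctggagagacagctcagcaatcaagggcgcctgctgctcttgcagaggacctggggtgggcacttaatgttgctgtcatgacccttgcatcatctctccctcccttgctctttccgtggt
Dpp4, chr2:62412316-62412481 (-): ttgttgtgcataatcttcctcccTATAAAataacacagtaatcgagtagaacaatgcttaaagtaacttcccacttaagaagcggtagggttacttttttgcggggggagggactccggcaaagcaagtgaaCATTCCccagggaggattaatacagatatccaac
S100a4, chr3:90603520-90603769 (+): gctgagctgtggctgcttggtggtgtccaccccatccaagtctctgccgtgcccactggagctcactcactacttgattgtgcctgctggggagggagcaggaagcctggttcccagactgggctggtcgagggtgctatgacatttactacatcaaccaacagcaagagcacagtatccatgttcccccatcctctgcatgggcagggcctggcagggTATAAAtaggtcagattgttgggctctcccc
Pdpn, chr4:143299565-143299814 (-): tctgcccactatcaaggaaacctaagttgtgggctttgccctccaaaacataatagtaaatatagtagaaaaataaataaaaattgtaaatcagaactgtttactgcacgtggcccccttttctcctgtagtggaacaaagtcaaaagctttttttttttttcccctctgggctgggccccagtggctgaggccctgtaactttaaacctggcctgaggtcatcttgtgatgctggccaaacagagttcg
Both strands were searched for the TATA box as TATAAA, for the CCAAT box by its name, for the AP-1 site as TGANTCA and for the TEAD site as GGAATG, and no matches overlapped. S100a4 had TATAAA 31 bases before its start, a motif present in 12.4% of 32851 promoters at the same length of 250 bases. Dpp4 had TATAAA 227 bases before its start and GGAATG, read on the other strand as CATTCC, 118 bases before it. In windows of 166 bases these letters occurred in 7.91% and 8.92% of promoters. No match of any of the 4 was found in the printed windows of Pi16 and Pdpn. The pairs therefore did not share any of these motifs within the bases shown. The bases nearest the start of Pi16 and Dpp4 were not searched.

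The first question was whether these genes differed between Mmp13-/- and WT tissue at each day. None passed an adjusted p of 0.05 in the limma fit across all probe sets at 7 d, 14 d or 21 d, Nnmt at 21 d being set aside. Few probe sets did so at all, namely 4 at 7 d (0.00888%), 8 at 14 d (0.0178%) and 22 at 21 d (0.0488%). At the looser limit of an unadjusted p of 0.05, 5 of the 9 genes were lower in Mmp13-/- tissue at 14 d (Dpt, Clec3b, Dpp4, Fap and Nnmt), against 2.22% of all probe sets. At 7 d this was 1 of 9 (Nnmt), against 0.89%, and at 21 d it was 2 of the other 8 (Dpt and Clec3b), against 6.15%. No gene was higher at that limit at any day, against 1.27% of probe sets at the first, 1.76% at the second and 5.77% at the last. The median difference of the 9 genes at 14 d was -0.54, whereas the median over all probe sets was 0.01. Nnmt was chosen by its 21 d signal. Without it, 4 of 8 genes were lower at 14 d and 0 of 8 at 7 d, at the same unadjusted limit. The median difference of these 8 genes at 14 d was -0.59. With the WT 14 d replicates 1 and 3 left out, an alternative chosen after seeing the data, none was called at 14 d either.

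**Figure D1:**
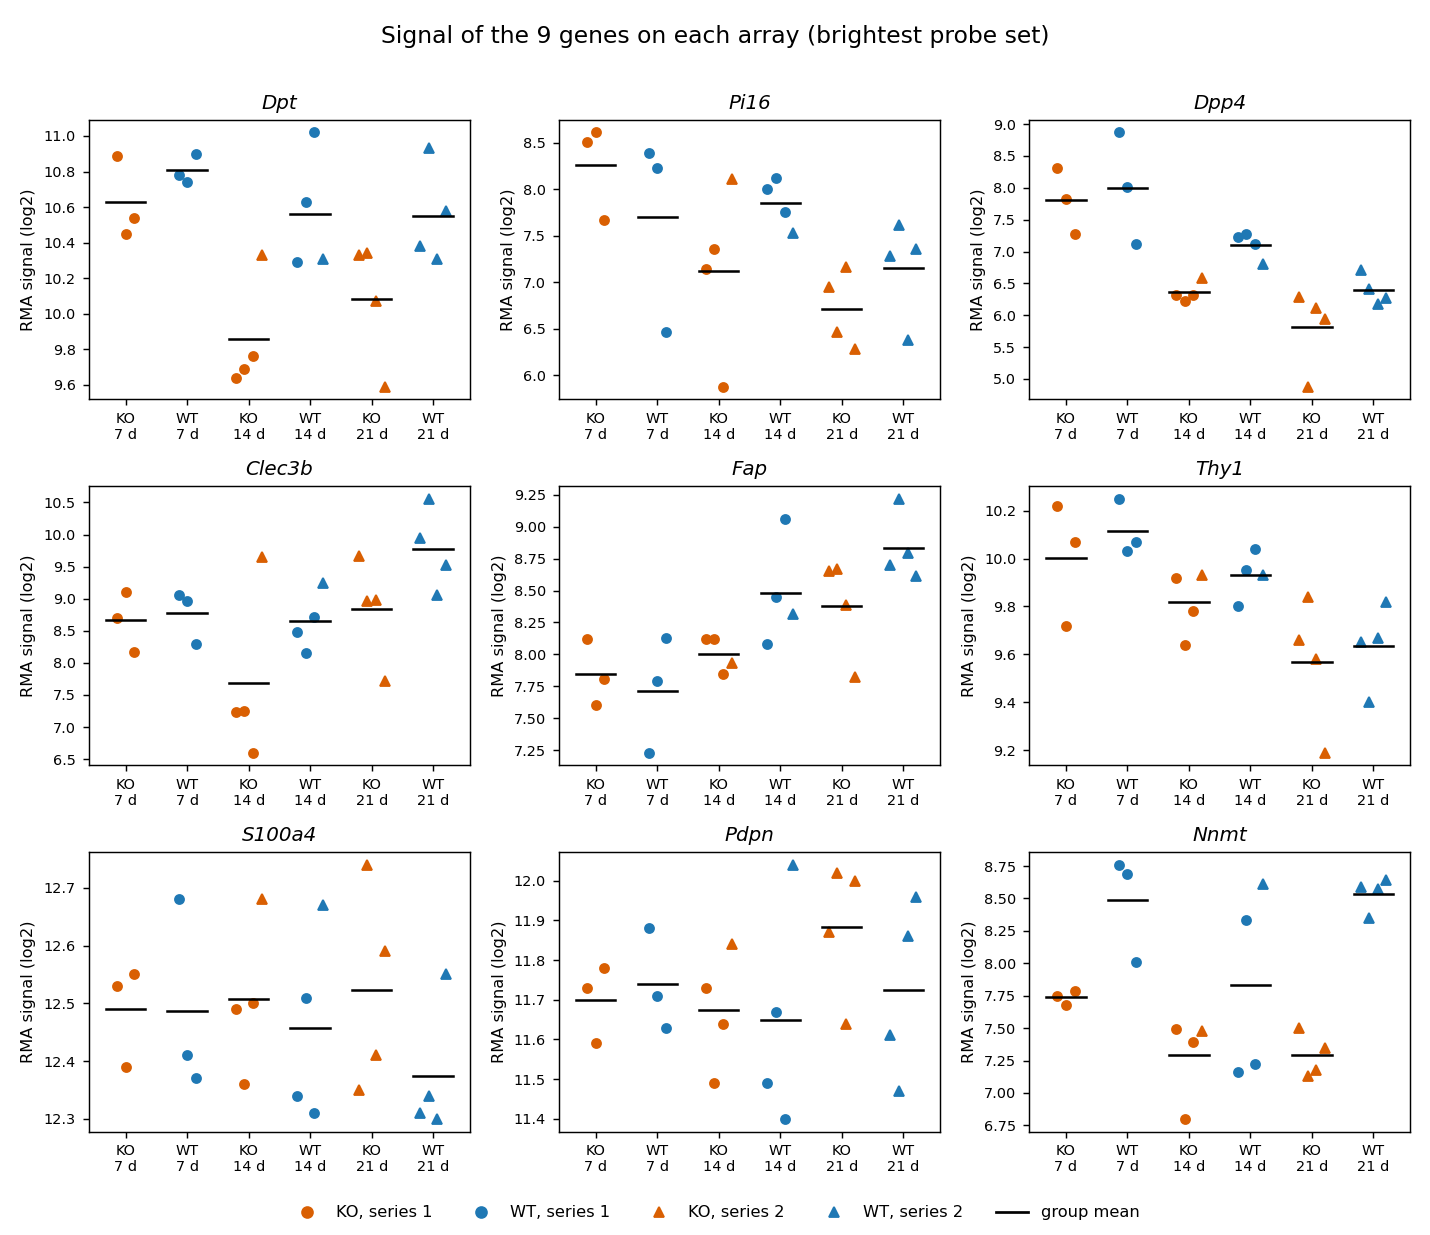
Log2 RMA signal of the brightest probe set of each gene (y axis) on each of the 22 arrays, with Mmp13-/- (orange) left of WT (blue) at each of the 3 days. Circles are hybridization series 1, triangles series 2, and bars the group mean. Dpp4 at 14 d shows all 4 Mmp13-/- arrays (6.23 to 6.59) below all 4 WT arrays (6.80 to 7.27), and y axes differ between genes and do not start at 0.

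Dpt encodes dermatopontin, a small matrix protein that binds decorin and collagen. At 14 d its signal was 9.64, 9.69, 9.76 and 10.33 in the 4 Mmp13-/- samples. The 4 WT samples of that day read 10.29, 10.63, 11.02 and 10.31. Only replicate 4 of the Mmp13-/- tissue reached the WT range. The difference was -0.71 (95% CI -1.12 to -0.30, limma unadjusted p = 0.00179, adjusted p = 0.722, exact two-sided permutation p = 0.0857). Permutations for 14 d alone, here and below, shuffled the arrays of the day without regard to series. At 7 d Dpt was 10.89, 10.45 and 10.54 in Mmp13-/- tissue, against 10.78, 10.74 and 10.90 in WT tissue, a difference of -0.18 ± 0.23 (SE). At 21 d it was 10.33, 10.34, 10.07 and 9.59 in Mmp13-/- tissue, against 10.38, 10.93, 10.31 and 10.58 in WT tissue, a difference of -0.47 ± 0.20 (SE). Dpt was thus below WT in the mean at all 3 days, which held for 14.1% of all probe sets. Averaged over the 3 days the difference was -0.45 (95% CI -0.70 to -0.20). The exact two-sided permutation test within day and series gave p = 0.00132 for it, and limma an adjusted p of 0.254 over all probe sets, of which 31 (0.0688%) were called. Of the 8 genes other than Nnmt, none was called for this average and 3 of 8 (Dpt, Clec3b and Dpp4) were lower at an unadjusted p of 0.05, against 3.49% of probe sets.

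Pi16, a secreted peptidase inhibitor that marks adventitial reserve fibroblasts, varied more between mice. At 14 d it was 7.14, 7.36, 5.88 and 8.11 in Mmp13-/- tissue, against 8.00, 8.12, 7.75 and 7.53 in WT tissue. The Mmp13-/- mice thus spread from far below the WT mice to the level of the highest of them. The difference of -0.73 (95% CI -1.60 to 0.14) did not pass (limma adjusted p = 0.999, exact permutation p = 0.143). At 7 d the order of the means was the other way, with 8.51, 8.61 and 7.67 in Mmp13-/- tissue and 8.39, 8.23 and 6.47 in WT tissue (0.57 ± 0.48, SE). That order hung on one sample, since without WT replicate 3 the difference was -0.047. At 21 d Pi16 was 6.95, 6.47, 7.16 and 6.28 in Mmp13-/- tissue, against 7.28, 7.61, 6.38 and 7.36 in WT tissue (-0.44 ± 0.42, SE). A second, dimmer probe set of Pi16 correlated only weakly with the brighter one (r = 0.37 over 22 arrays) and differed by -0.25 at 14 d and 0.22 at 21 d.

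Clec3b encodes tetranectin, a plasminogen-binding lectin of the stroma and plasma. At 14 d its signal was 7.23, 7.25, 6.60 and 9.65 in Mmp13-/- tissue, against 8.48, 8.16, 8.72 and 9.25 in WT tissue. 3 of the Mmp13-/- samples lay below every WT sample, and the remaining one, replicate 4, above them all. Replicate 4, the only array of series 2 at that day, was the highest in both genotypes. Clec3b had the largest series term of the 9 genes, series 2 lying 1.71 above series 1 in the fit (limma unadjusted p = 0.00105). At 21 d it was 9.67, 8.96, 8.98 and 7.72 in Mmp13-/- tissue, against 9.95, 10.56, 9.06 and 9.52 in WT tissue. The differences were -0.97 (95% CI -1.78 to -0.16, limma adjusted p = 0.999) at 14 d and -0.94 (95% CI -1.75 to -0.13, limma adjusted p = 0.341) at 21 d. The exact permutation p was 0.257 at 14 d and 0.143 at 21 d. At 7 d the genotypes overlapped, at 8.70, 9.11 and 8.17 in Mmp13-/- tissue and 9.06, 8.96 and 8.30 in WT tissue. Averaged over the days the difference was -0.67 ± 0.24 (SE, exact permutation p = 0.0138, limma adjusted p = 0.548).

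Dpp4 and Fap encode related membrane serine peptidases that trim peptides after proline, and they are close neighbours on chromosome 2 with a single coding gene, Gcg, between them. Dpp4 was the one gene of the 9 whose genotypes did not overlap at 14 d, a pattern that 1.9% of all probe sets showed in that direction. Its signal was 6.31, 6.23, 6.32 and 6.59 in Mmp13-/- tissue, against 7.23, 7.27, 7.11 and 6.80 in WT tissue. The difference was -0.74 (95% CI -1.39 to -0.09, limma adjusted p = 0.999, exact two-sided permutation p = 0.0286, the smallest that 4 against 4 can give). That permutation crossed the 2 series, and shuffling within series could not give so small a p. At 7 d the mice of one genotype spread widely, at 8.31, 7.83 and 7.27 in Mmp13-/- tissue and 8.87, 8.02 and 7.12 in WT tissue (-0.20 ± 0.36, SE). At 21 d Dpp4 was 6.29, 4.88, 6.12 and 5.94 in Mmp13-/- tissue, against 6.71, 6.41, 6.18 and 6.27 in WT tissue (-0.59 ± 0.31, SE). Its average over the days was -0.51 ± 0.19 (SE, exact permutation p = 0.0328, limma adjusted p = 0.607). Of its 3 other probe sets, 2 followed the brightest one (r = 0.92 and 0.85 over 22 arrays) with differences of -0.43 and -0.33 at 14 d. The remaining one did not follow it (r = -0.18) and showed a difference of 0.00. Both this one and the second of the followers were dim, with mean signals of 4.21 and 3.60.

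Fap, fibroblast activation protein, overlapped between genotypes at every day. At 14 d it was 8.12, 8.12, 7.85 and 7.93 in Mmp13-/- tissue, against 8.08, 8.45, 9.06 and 8.32 in WT tissue (-0.47, 95% CI -0.94 to -0.01, limma adjusted p = 0.999). At 21 d it was 8.65, 8.67, 8.39 and 7.82 in Mmp13-/- tissue, against 8.70, 9.22, 8.79 and 8.61 in WT tissue (-0.45, 95% CI -0.91 to 0.02, limma adjusted p = 0.437). At 7 d the difference was 0.13 ± 0.26 (SE). The exact permutation p was 0.0857 at 14 d and 0.114 at 21 d.

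Thy1 (the surface glycoprotein CD90), S100a4 (a calcium-binding protein also called fibroblast-specific protein, present in leukocytes too) and Pdpn (podoplanin, also on lymphatic endothelium) were steadier. Over all arrays Thy1 lay between 9.19 and 10.25, S100a4 between 12.30 and 12.74 and Pdpn between 11.40 and 12.04. Their genotype differences were -0.11, -0.11 and -0.07 for Thy1, in the order of the days. For S100a4 they were 0.00, 0.05 and 0.15, and for Pdpn -0.04, 0.03 and 0.16. The intervals at 14 d allowed at most -0.39 to 0.17 for Thy1, -0.16 to 0.26 for S100a4 and -0.22 to 0.27 for Pdpn. Differences the size of those of Dpt, Clec3b and Dpp4 lay outside these intervals. Pdpn also marks lymphatic vessels, whose marker list had a mean of 5.44 to 6.36 in Mmp13-/- tissue and 5.64 to 6.86 in WT tissue at 21 d, above the 3.53 to 3.98 of both genotypes at 7 d. Its part in the Pdpn signal was not tested.

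**Figure D2:**
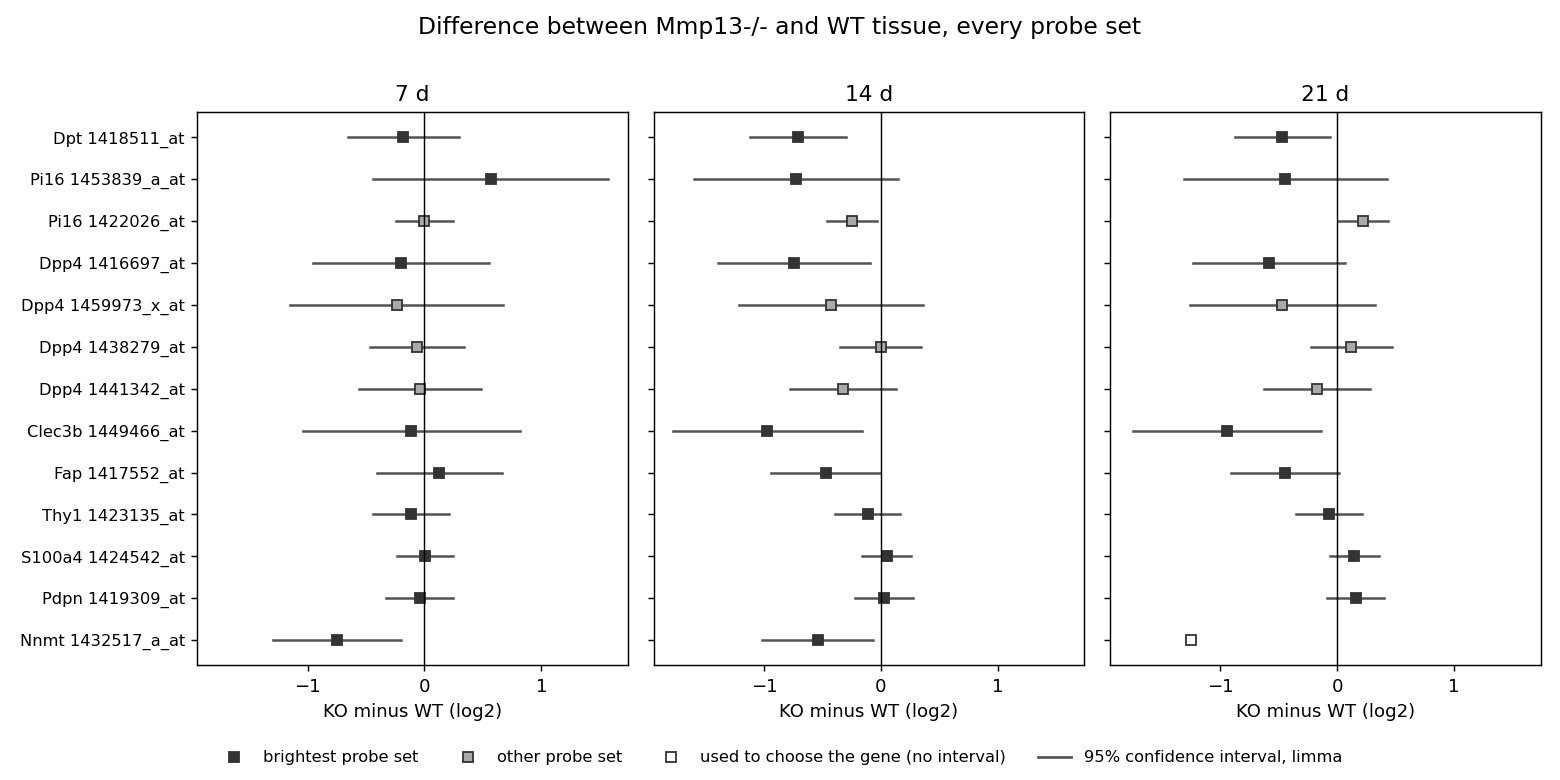
Difference between Mmp13-/- and WT tissue in log2 signal (x axis) with its 95% confidence interval from limma for each of the 13 probe sets (rows) at each of the 3 days. The open square is Nnmt at 21 d, the value by which it was chosen. At 14 d the brightest probe sets of Dpt, Pi16, Dpp4, Clec3b, Fap and Nnmt lie between -0.97 and -0.47, and those of Thy1, S100a4 and Pdpn between -0.11 and 0.05.

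The 14 d difference was not alike in the 2 hybridization series. Within series 1, with 3 mice of each genotype, all Mmp13-/- samples were below all WT samples for Dpt, Pi16, Clec3b and Dpp4. The differences there were -0.95 for Dpt, -1.16 for Pi16, -1.43 for Clec3b and -0.92 for Dpp4. The exact permutation p was 0.1 for each, the smallest that 3 against 3 can give. How many of all probe sets showed this pattern within series 1 was not counted, so the number of genes cannot be weighed. In series 2, with 1 mouse of each genotype, the same differences were 0.02, 0.58, 0.40 and -0.21. Fap differed by -0.50 in series 1, where the genotypes overlapped, and by -0.39 in series 2. The part of the mouse and that of the labelling kit in this contrast cannot be told apart. Markers of adipocytes, 6 measured and 2 of them dim, moved in the same way. Their list mean in series 1 was 6.89, 6.48 and 6.76 in Mmp13-/- tissue, against 7.85, 7.30 and 7.57 in WT tissue, and in series 2 it was 7.46 in Mmp13-/- tissue, against 6.77 in WT tissue. Their part in the values of these genes was not tested. With the WT replicates 1 and 3 left out, the 14 d differences were -0.55 for Dpt, -0.56 for Pi16, -0.52 for Clec3b, -0.67 for Dpp4 and -0.41 for Fap.

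Whether the genotype difference itself changed between 7 d and 14 d was tested as an interaction. No probe set was called for it by limma, with 1032 (2.29%) at an unadjusted p of 0.05, and none of the 9 genes was among those. In the lower direction this was 1.37% of probe sets. The change was -1.29 for Pi16 (95% CI -2.63 to 0.04, limma unadjusted p = 0.056), -0.86 for Clec3b, -0.60 for Fap, -0.54 for Dpp4, -0.53 for Dpt and 0.21 for Nnmt. A change between the days was therefore not shown for any of them. Between 14 d and 21 d no probe set was called either, with 2965 (6.58%) at an unadjusted p of 0.05, none of them one of the 8 genes other than Nnmt.

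The second question was how the genes moved with time within a genotype, where changes are fitted values with the series taken into account. In Mmp13-/- tissue from 7 d to 14 d none of the 9 genes passed an adjusted p of 0.05, while 283 probe sets did (0.628%). At an unadjusted p of 0.05, 5 of 9 were lower (Dpp4, Dpt, Clec3b, Pi16 and Nnmt), against 3.08% of probe sets. Dpp4 came nearest, with a change of -1.43 (95% CI -2.16 to -0.70, limma adjusted p = 0.0734) and every 14 d sample below every 7 d sample. All 14 d samples were below all 7 d samples for Dpt and Nnmt as well, a pattern found in 4.46% of probe sets. The Dpt change was -0.81 ± 0.22 (SE, limma adjusted p = 0.13). Without replicate 4 of Mmp13-/- 14 d it was called. Clec3b changed by -1.41 ± 0.43 (SE, limma adjusted p = 0.222) and Pi16 by -1.25 ± 0.47 (SE, limma adjusted p = 0.422). The group means of Clec3b were 8.66 at 7 d and 7.68 at 14 d, before the series was taken into account. Fap changed by 0.20 ± 0.25 (SE).

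In WT tissue from 7 d to 14 d none of the 9 passed, while 767 probe sets did (1.7%). Here 1 gene was higher at an unadjusted p of 0.05 (Fap), against 5.36% of probe sets, and 2 were lower (Dpp4 and Nnmt), against 4.71%. Fap changed by 0.80 (95% CI 0.28 to 1.32, limma adjusted p = 0.135). Its 7 d samples read 7.23, 7.79 and 8.13, and its 14 d samples 8.08, 8.45, 9.06 and 8.32, so that only the highest 7 d sample entered the 14 d range. Dpp4 changed by -0.89 ± 0.35 (SE, limma adjusted p = 0.31), Dpt by -0.28 ± 0.22 (SE) and Pi16 by 0.04 ± 0.47 (SE). The mean of Dpp4 was thus lower at 14 d than at 7 d in both genotypes. Between 14 d and 21 d none of the 8 genes other than Nnmt was called in either genotype, while 36 probe sets (0.0799%) were called in Mmp13-/- tissue and 189 (0.42%) in WT tissue. None of the 8 reached an unadjusted p of 0.05 there, which 13.7% of probe sets did in Mmp13-/- tissue and 14.1% in WT tissue.

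Other genes of the fibroblast programmes were read from lists, which were chosen with earlier results of these data known. Their counts, medians and means are therefore a description and not independent support. Of 17 measured genes of adventitial fibroblasts, none was called between genotypes at 14 d, and 10 were lower in Mmp13-/- tissue at an unadjusted p of 0.05, against 2.22% of all probe sets. The median difference of the list was -0.63, against 0.01 over all probe sets. The 3 with the smallest adjusted p were Tnxb (tenascin X, -1.42 ± 0.37, SE), Col14a1 (a fibril-associated collagen, -0.70 ± 0.21, SE) and Gpx3 (a secreted glutathione peroxidase, -0.37 ± 0.11, SE), at adjusted p values of 0.625, 0.854 and 0.879 by limma. The mean of the list at 14 d was 7.08 to 7.68 in the 4 Mmp13-/- samples and 7.74 to 8.18 in the 4 WT samples, with no overlap. At 7 d it was 7.97 to 8.53 in Mmp13-/- tissue and 8.25 to 8.87 in WT tissue, and at 21 d 7.04 to 7.47 in Mmp13-/- tissue and 6.93 to 7.76 in WT tissue.

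From 7 d to 14 d, 4 of the 17 adventitial genes fell in Mmp13-/- tissue by limma, namely Tnxb (-1.98), Cd55 (a complement regulator, -1.75), Cd34 (-1.50) and Has1 (a hyaluronan synthase, -1.23), at adjusted p values of 0.0278, 0.0221, 0.0247 and 0.0256, while 0.302% of all probe sets fell. The count of 4 became 0 without Mmp13-/- 7 d replicate 1 or 14 d replicate 2 or 3, 1 without 7 d replicate 2 or 14 d replicate 1, and 2 without 7 d replicate 3. In WT tissue Cd55 (-1.65) and Has1 (-1.30) fell, as did 0.571% of all probe sets, and Gpx3 rose (0.92). Neither Cd55 nor Has1 was called without WT 7 d replicate 1, or without the WT 14 d replicates 1 and 3 together, and 1 of them was called without WT 14 d replicate 3 alone. The list medians were -0.81 in Mmp13-/- tissue and -0.78 in WT tissue, while the medians of all probe sets were 0.00 and -0.01. The values of 14 of 17 genes in Mmp13-/- tissue and 13 of 17 in WT tissue were lower at 14 d than at 7 d. Dpp4, Dpt and Clec3b shared that direction in both genotypes, whereas Pi16 shared it in Mmp13-/- tissue but not in WT tissue. For Clec3b in WT tissue the group means were 8.77 at 7 d and 8.65 at 14 d, before the series was taken into account.

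Of 17 measured genes of activated fibroblasts, 5 rose and 1 fell from 7 d to 14 d in Mmp13-/- tissue, and 6 rose in WT tissue. Over all probe sets 0.326% rose in Mmp13-/- tissue and 1.13% in WT tissue. Col11a1, a fibrillar collagen, rose by 2.95 in Mmp13-/- tissue and by 2.81 in WT tissue. Tagln, the contractile protein transgelin, rose by 1.88 in Mmp13-/- tissue and by 1.83 in WT tissue, and Col12a1, another collagen, by 1.30 in Mmp13-/- tissue and by 1.79 in WT tissue. Ncam1, an adhesion molecule, rose by 1.22 in Mmp13-/- tissue and by 1.21 in WT tissue. The list medians were 0.68 in Mmp13-/- tissue and 0.72 in WT tissue, and no gene of the list was called between genotypes at any day, where 2 of 17 were lower at an unadjusted p of 0.05 at 14 d, against 2.22% of probe sets. The counts moved with single mice, the 5 of Mmp13-/- tissue becoming 2 without its 7 d replicate 1 or 2 and 3 without its 14 d replicate 1, 2 or 3. The 6 of WT tissue became 2 without its 7 d replicate 1 and 3 without its 7 d replicate 2 or 14 d replicate 3, and 2 without the 14 d replicates 1 and 3 together. Fap, the activation gene among the 9, had a mean change above 0 in both genotypes, but in Mmp13-/- tissue that change was smaller than its SE.

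**Figure D3:**
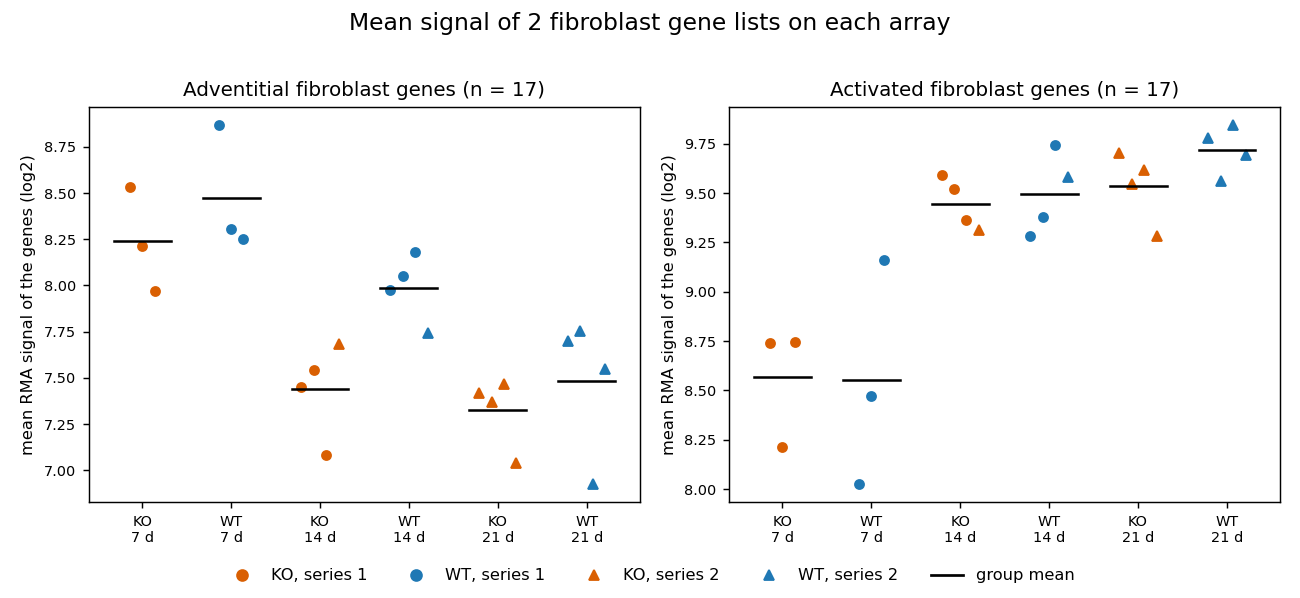
Mean log2 RMA signal (y axis) of 17 adventitial (left) and 17 activated (right) fibroblast genes on each array, Mmp13-/- (orange) left of WT (blue) at each day. Circles are series 1, triangles series 2, bars the group mean. The adventitial mean at 14 d is 7.08 to 7.68 in Mmp13-/- and 7.74 to 8.18 in WT samples, and the activated mean is at least 9.28 on every array of 14 d and 21 d.

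Among 19 general fibroblast genes, the matrix metalloproteinase Mmp2 (-0.92 ± 0.13, SE, adjusted p = 0.00626) and the collagen-binding proteoglycan Lum (-0.94 ± 0.15, SE, adjusted p = 0.0274) were lower in Mmp13-/- tissue at 14 d by limma. Dcn, a related proteoglycan to which dermatopontin binds, differed by -0.42 ± 0.08 (SE, limma adjusted p = 0.19). The list median was -0.20, 18 of 19 genes were below 0 and 9 of 19 were lower at an unadjusted p of 0.05, against 2.22% of probe sets and 0.0178% called in either direction. The count of 2 became 0 without replicate 4 of either genotype at 14 d, 1 without Mmp13-/- 14 d replicate 1 or 3 or WT 14 d replicate 1, 2 or 3, and 0 without the WT 14 d replicates 1 and 3 together. From 7 d to 14 d Dcn (-0.48) and the transcription factor Prrx1 (-0.51) fell in Mmp13-/- tissue, and 5 genes rose in WT tissue, among them the matrix protein gene Fbln1 (1.24) and the receptor Pdgfra (0.75). The 5 became 2 or 3 without any single WT array of these days, and 1 without the WT 14 d replicates 1 and 3 together. Endothelial and pericyte markers, which share the tissue, were also below WT in the mean at 14 d, 8 of 8 with a median of -0.37 and 7 of 7 with a median of -0.31, and neutrophil markers 7 of 8 with a median of -0.44. None of these was called by limma, 1 endothelial and 2 neutrophil markers having an unadjusted p under 0.05. Their part in the fibroblast gene values was not tested.

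Families and partners of single genes were read in the same way. Of 8 other peptidases of the Dpp4 kind none was called in any comparison, and none was different between genotypes at an unadjusted p of 0.05 at any day. Of 11 other S100 genes only S100a1 was called, rising by 0.92 ± 0.18 (SE) in WT tissue from 7 d to 14 d (limma adjusted p = 0.00916). Over all probe sets 1.13% rose in that step. Between genotypes at 14 d, 9 of the 11 S100 genes were below 0, against 47.5% of all probe sets. At an unadjusted p of 0.05, 3 (S100a16, S100a5 and S100a14, of which the last pair was dim) were lower, against 2.22%. Of 11 binding partners of these proteins, Itgb5 and Myh9, an integrin chain and a non-muscle myosin, rose in WT tissue from 7 d to 14 d by 0.65 and 0.51 (limma adjusted p = 0.0136 and 0.0154). Over the same days Dcn fell by 0.48 in Mmp13-/- tissue (limma adjusted p = 0.0128), where 0.302% of all probe sets fell. Between genotypes at 14 d, 10 of the 11 partners were below 0, with a median of -0.14, and Dcn alone was lower at an unadjusted p of 0.05, against the same 47.5% and 2.22% of all probe sets. Their list mean was 8.94 to 9.06 in Mmp13-/- tissue and 9.13 to 9.19 in WT tissue, with no overlap.

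Nnmt stood apart from the fibroblast genes. At 7 d its signal was 7.75, 7.68 and 7.79 in Mmp13-/- tissue, against 8.76, 8.69 and 8.01 in WT tissue. The groups did not overlap, which held for 4.05% of probe sets in that direction. The difference was -0.75 (95% CI -1.29 to -0.20, limma unadjusted p = 0.01, adjusted p = 1, exact two-sided permutation p = 0.1, the smallest that 3 against 3 can give). At 14 d it was 7.49, 6.80, 7.39 and 7.48 in Mmp13-/- tissue, against 7.16, 8.33, 7.22 and 8.61 in WT tissue. WT replicates 2 and 4 lay above every Mmp13-/- sample and WT replicates 1 and 3 within their range, so that the difference of -0.54 ± 0.23 (SE) had an exact permutation p of 0.286. At 21 d, the values by which the gene was chosen, it was 7.50, 7.13, 7.18 and 7.35 in Mmp13-/- tissue and 8.59, 8.35, 8.57 and 8.64 in WT tissue, a difference of -1.25.

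The 7 d and 14 d arrays were not used in choosing Nnmt, and their average difference, a value added after seeing the data, was -0.64 (95% CI -1.01 to -0.28, exact permutation p = 0.025 within day and series, limma adjusted p = 0.527). Over that average 8 probe sets were called (0.0178%). With WT 14 d replicates 1 and 3 left out it became -0.93, with an adjusted p of 0.018 by limma. That choice left out the WT mice with the lowest Nnmt at 14 d, and the keratinocyte markers for which they were left out moved with it. From 7 d to 14 d Nnmt changed by -0.61 ± 0.25 (SE, limma adjusted p = 0.565) in Mmp13-/- tissue and by -0.82 ± 0.25 (SE, limma adjusted p = 0.133) in WT tissue. The WT change was called (-1.09, adjusted p = 0.0273) without WT 14 d replicate 2, and was -0.15 without WT 14 d replicates 1 and 3.

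The genes whose pattern over the 22 arrays was most like that of Nnmt were Rps25, a ribosomal protein gene (r = 0.80), Nxpe4 (r = 0.78) and Efs (r = 0.75), of 11789 genes compared. Rps25 and Nxpe4 lie on chromosome 9, as Nnmt does. The 3 genes, named after their values were seen, ran most strongly against it, Cadm1 (r = -0.89), Ppp2r1b (r = -0.83) and Aph1b (r = -0.81), and these are on chromosome 9 too. Of the 6 genes with an absolute r of at least 0.75, 5 were on chromosome 9, whereas 660 of 11773 genes with a known position (5.61%) were. These r values include the 21 d arrays by which Nnmt was chosen. Over the 14 arrays of 7 d and 14 d alone, 68 genes reached 0.75 and 8 of them (11.8%) were on chromosome 9, among them Cadm1, Ppp2r1b, Rps25 and Aph1b but not Nxpe4 (r = 0.74). Nxpe4 is 5 and Cadm1 6 coding genes from Nnmt, Rps25 53, and Mmp13, the deleted gene, 444. Of 16 measured genes among the 20 nearest to Nnmt, 10 on each side, only Nxpe4 and Cadm1 reached 0.75, and the others had r between -0.54 and 0.30. The points share hybridization series and genotype, so that these r values are a description.

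Cadm1, a cell adhesion molecule, shows most plainly how the mice fell. Its signal at 7 d was 8.60, 8.70 and 8.85 in Mmp13-/- tissue, against 5.30, 4.87 and 7.48 in WT tissue. At 14 d it was 8.55, 9.14, 8.82 and 9.31 in Mmp13-/- tissue, against 8.88, 5.69, 8.75 and 6.51 in WT tissue. WT 14 d replicates 1 and 3, the samples with low Nnmt, thus had Cadm1 at the level of the Mmp13-/- samples. Nxpe4 was 5.80, 4.88, 6.12 and 4.86 in Mmp13-/- tissue at 14 d, against 4.91, 6.40, 4.88 and 6.30 in WT tissue. Rps25 was 7.40, 6.68, 7.42 and 7.05 in Mmp13-/- tissue at 14 d, against 6.61, 7.72, 6.45 and 8.38 in WT tissue. The same 2 WT mice were thus the low ones for both genes. Mmp13 was 11.87 and 11.68 in these mice, and 11.58 to 11.87 over all WT mice of that day. Within the 11 WT arrays the r with Nnmt was -0.80 for Cadm1, 0.84 for Nxpe4 and 0.91 for Rps25, and within the 11 Mmp13-/- arrays it was -0.62, -0.06 and 0.21. The third WT mouse of 7 d, lowest of its group in Nnmt at 8.01, had the highest Cadm1 of its group (7.48) and the lowest Nxpe4 (5.80). The 3 genes were picked for their r with Nnmt, so their values are given with no test. Which strain's alleles each mouse carried around these genes is not given in the sources used here and was not tested. The part of the keratinocyte markers, raised in the same 2 mice, was not tested either.

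**Figure D4:**
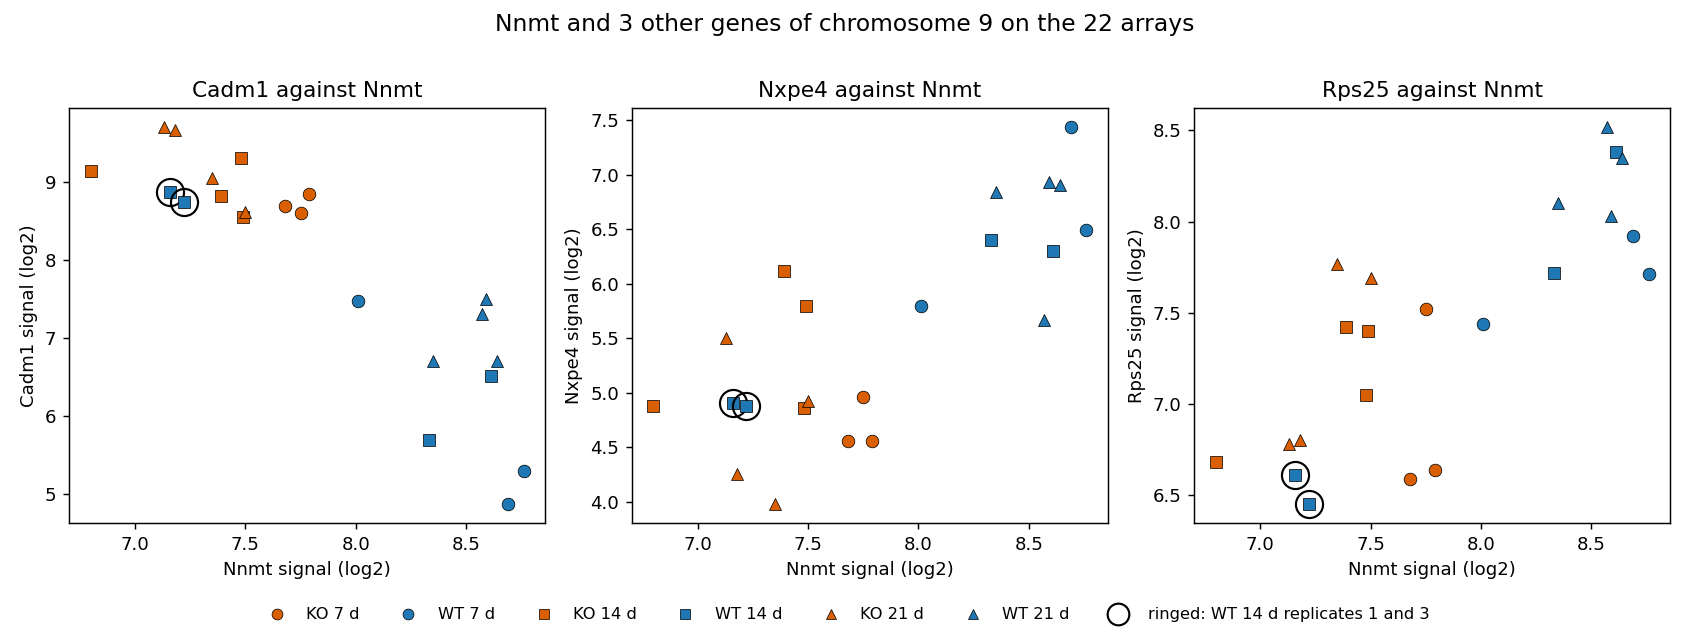
Log2 RMA signal of Cadm1, Nxpe4 and Rps25 (y axes) against that of Nnmt (x axis) on the 22 arrays, Mmp13-/- in orange and WT in blue, with circles for 7 d, squares for 14 d and triangles for 21 d. The ringed WT 14 d replicates 1 and 3 (Nnmt 7.16 and 7.22) lie beside the Mmp13-/- samples in each panel, whereas WT replicates 2 and 4 of that day (8.33 and 8.61) lie among the other WT samples.

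Thy1 and Clec3b are on chromosome 9 as well, 73 and 718 coding genes from Nnmt. Thy1 correlated with Nnmt at r = 0.24 and Clec3b at r = 0.48. Of 22 measured genes of nicotinamide and methyl metabolism, the pathway in which Nnmt acts, none was called between genotypes at any day. At 14 d 1 was higher and 1 lower at an unadjusted p of 0.05, against 1.76% and 2.22% of all probe sets. The only call in the list was Qprt, an enzyme of NAD synthesis, which rose by 0.75 ± 0.16 (SE, limma adjusted p = 0.0448) in WT tissue from 14 d to 21 d, a step across the hybridization series. Over all probe sets 0.182% rose in that step.

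Among themselves the 9 genes gave 36 pairs, with r between -0.52 and 0.75 over the 22 arrays. Pi16 and Dpp4 were closest (r = 0.75, and 0.65 once group and series means were removed), followed by S100a4 and Pdpn (0.73 both ways). Other pairs appeared only within groups, Pi16 with Clec3b (0.35 over all arrays, 0.75 within) and Dpt with Fap (0.24 and 0.73). Dpp4 and Fap, neighbours in the genome, ran opposite to each other (-0.52). All points share libraries and series, and no test is attached.

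**Figure D5:**
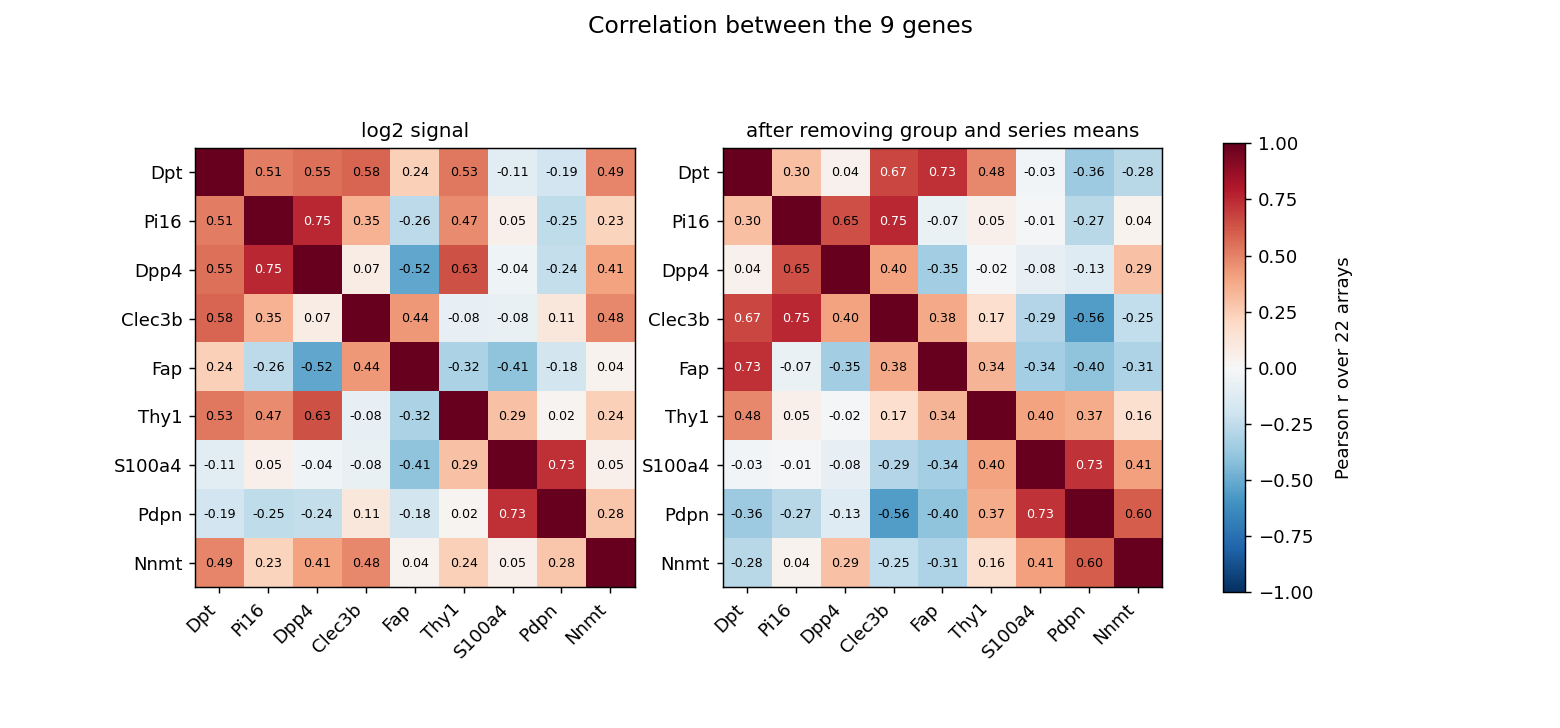
Pearson r between the 9 genes over the 22 arrays, from the log2 signals (left) and from what remains after group and series means were removed (right). Red is positive and blue negative. Pi16 with Dpp4 (0.75 and 0.65) and S100a4 with Pdpn (0.73 and 0.73) are high in both panels, and Dpt with Fap (0.24 and 0.73) in the right one.

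The likeness of the other genes on the array to each of the 9 was measured by Pearson r over the 22 arrays, among 11789 genes. Dpt was closest to Enpp3 (r = 0.89), Thbs3 (0.86) and Igfbp6 (0.85), and Pi16 to Pla1a (0.87), Pcolce2 (0.85) and Scara5 (0.81). Dpp4 was closest to Tmem100 (0.93), the mesenchymal transcription factor Prrx1 (0.92) and Tmeff2 (0.91). Clec3b was closest to Cd248 (0.87), a stromal surface protein, to Mcrip1 (0.86) and to Man2a1 (0.81), and Fap to Sptbn1 (0.89), Olfml2b (0.88) and Fibin (0.88). Igfbp6, Pcolce2 and Cd248 are in the list of adventitial genes, and Prrx1 in that of general fibroblast genes. The steadier genes had likenesses of another kind, Thy1 with Rabl3 (0.87), Chst1 (0.85) and Il1rl2 (0.85), S100a4 with Galnt6 (0.80), Dnajc25 (0.78) and Rnd2 (0.77), and Pdpn with Nsf (0.90), Gnl3 (0.81) and Rnmt (0.80).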

How the data were processed

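The deposited values are log2 signals that the authors made by RMA from 22 Affymetrix mouse arrays, 1 mouse each. Software versions were not given in the sources used here. Of 45101 probe sets, 64 controls were left out, and 34945 of the rest carried 1 gene in the platform annotation. limma 3.58.1 in R 4.3.3 fitted 6 group means and the hybridization series, with Benjamini-Hochberg adjustment over 45037 probe sets. Single genes were also tested by exact two-sided permutation, within day and series for averages over days and across the series for 14 d alone. Array medians were 4.16 to 4.27, and the number of arrays limits the precision. Members and gene lists were chosen with earlier results of these data known. Named are every member, up to 4 genes of a list by smallest adjusted p, the 3 genes of highest Pearson r with each member, and Mmp13. Nnmt was not tested where 21 d arrays enter. Alternatives were no series term, repeated quantile normalization, no dim probe sets, array weights, a replicate block, gene means, 2 groups alone, each series alone, each array left out and, added later, WT 14 d replicates 1 and 3 left out. The fit was tested on simulated data.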

Additional observations from a re-analysis of the deposited data

Results flagged for a closer look

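Within groups of 4 arrays, 52 sets of member values were screened for a sample far from its group, and chance alone sets apart about 1 in 20. In 3 of them one sample was far from the rest. Nnmt was 6.80 in replicate 2 of Mmp13-/- tissue at 14 d, while the other mice of the group lay between 7.39 and 7.49. The second-brightest probe set of Dpp4 was 5.09 in replicate 4 of Mmp13-/- tissue at 14 d, the sample of hybridization series 2, while the others, all of series 1, lay between 4.05 and 4.21. S100a4 was 12.55 in replicate 4 of WT tissue at 21 d, against 12.30 to 12.34 in the other mice.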

How the results depend on the processing

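Of 1084 values of the 9 genes under the alternatives, 1038 kept their direction and their side of the threshold, 17 gained a call and 29 changed sign. Of 291 counts, 233 stayed within 1.5 times and 58 did not. Genes called between genotypes at 14 d were 2 with array weights (Dpt -0.83, adjusted p = 0.00666, and Clec3b -1.17, adjusted p = 0.0263). Genes called from 7 d to 14 d in Mmp13-/- tissue were 1 without a series term, 1 with dim probe sets left out and 1 with the replicate block (Dpp4 each time, adjusted p = 0.0406 in the block), 4 with array weights, 3 in the 2 groups alone and 2 in series 1 alone, and 0 to 1 without single arrays. In WT tissue they were 0 to 1 without single arrays. The replicate numbers did not pair the samples (r -0.16 to 0.50 over 10 pairs), and the block changed no other call of the 9 genes.

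Of general fibroblast genes, those lower at 14 d were 0 without a series term, 4 with array weights, 1 with the block, 1 in series 1 alone, 0 without WT 14 d replicates 1 and 3, and 0 to 2 without single arrays. Those higher in WT tissue from 7 d to 14 d were 5, and 2 without a series term, 3 with gene means, 2 in the 2 groups alone, 1 without the WT 14 d replicates 1 and 3, and 2 to 3 without single arrays. Activated genes higher in WT tissue were 10 with dim probe sets left out, 11 with array weights, 1 in the 2 groups alone, 3 in series 1 alone, 2 without WT 14 d replicates 1 and 3, and 2 to 9 without single arrays. In Mmp13-/- tissue they were 9 with array weights, 3 in series 1 alone and 2 to 5 without single arrays. Adventitial genes lower in WT tissue were 0 in the 2 groups alone, 0 without the WT 14 d replicates 1 and 3, and 0 to 2 without single arrays. In Mmp13-/- tissue they were 12 with array weights and 0 to 4 without single arrays.

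Some differences changed sign. The change of S100a4 between 7 d and 14 d in Mmp13-/- samples was 0.018 without a series term, and its difference at 7 d was -0.012 with requantiled values. Dpp4 at 7 d was 0.10 with array weights, and Pi16 from 7 d to 14 d in WT tissue -0.10 with gene means. Without WT 14 d replicates 1 and 3, S100a4 was -0.032 and Pdpn -0.11 between genotypes at 14 d, and from 7 d to 14 d in WT tissue Pi16 was -0.15 and S100a4 0.0023. Without single arrays, differences at 7 d ran over -0.047 to 0.91 for Pi16, -0.64 to 0.23 for Dpp4, -0.12 to 0.33 for Fap, -0.22 to 0.028 for Thy1, -0.055 to 0.10 for S100a4, -0.10 to 0.03 for Pdpn and -0.35 to 0.13 for Clec3b, at 14 d over -0.031 to 0.10 for Pdpn, and at 21 d over -0.16 to 0.058 for Thy1. Changes in WT tissue ran over -0.57 to 0.39 for Pi16 and -0.15 to 0.0033 for S100a4. The cause was not tested.

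Over all probe sets, calls with array weights were 29 at 7 d, 289 at 14 d, 1 at 21 d and 2304 from 7 d to 14 d in Mmp13-/- tissue. At 21 d they were 110 without WT 21 d replicate 3, and averaged over the days 5 with the replicate block. From 14 d to 21 d, 2523 in Mmp13-/- tissue and 4657 in WT tissue were called without a series term. Signal near background limits the 2 dim probe sets of Dpp4.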

Other observations

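Vessel-associated genes were read beside the fibroblast genes. From 7 d to 14 d in WT tissue, 2 of 7 pericyte markers rose by limma, the growth factor receptor Pdgfrb by 1.57 ± 0.32 (SE, adjusted p = 0.0113) and Notch3 by 1.37 ± 0.29 (SE, adjusted p = 0.0166), and 1 of 8 endothelial markers, the transcription factor Erg, by 1.17 ± 0.29 (SE, adjusted p = 0.0404). Over all probe sets 1.13% rose in WT tissue and 0.326% in Mmp13-/- tissue. The markers are those of the pericyte and endothelial lists. None of these lists had a higher call in Mmp13-/- tissue over the same days, where the list medians were 0.07 for pericyte and 0.11 for endothelial markers, against 1.29 and 1.21 in WT tissue. The WT step leaned on single mice, above all WT 7 d replicate 1, whose list means were 5.59 for pericyte and 4.89 for endothelial markers, against 6.97 to 7.17 and 6.16 to 6.71 in the other WT mice of 7 d. Without it the WT medians were 0.68 for pericyte and 0.64 for endothelial markers and no marker was called. The pericyte calls were also 0 without WT 14 d replicate 3 and without WT 14 d replicates 1 and 3 together, and 3 without WT 7 d replicate 2 or 3. Erg was also not called without WT 7 d replicate 3, without WT 14 d replicate 1, 2 or 3, or without replicates 1 and 3 together, whereas 6 endothelial markers were called without WT 7 d replicate 2. As an interaction, no marker was called by limma for a change of the genotype difference between these days. At an unadjusted p of 0.05, 5 of 7 pericyte and 6 of 8 endothelial markers were lower, against 1.37% of all probe sets, with medians of -0.96 and -1.05. Without WT 7 d replicate 1, 1 and 0 were lower, with medians of -0.54 and -0.45. Without other single arrays, 2 to 6 pericyte and 0 to 7 endothelial markers were lower. The endothelial count was 0 without WT 14 d replicate 3 or Mmp13-/- 7 d replicate 2. Without WT 14 d replicates 1 and 3 together, 2 pericyte and 0 endothelial markers were lower. These settings were chosen after seeing the data. General fibroblast genes took a similar course with smaller medians, 0.21 in WT tissue and -0.02 in Mmp13-/- tissue from 7 d to 14 d. Their genotype difference changed by a median of -0.215. That change was below 0 for 19 of 19 genes and lower at an unadjusted p of 0.05 for 5, with none called.

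Skeletal muscle markers varied widely between mice, their list mean running from 6.47 to 10.10 in Mmp13-/- tissue and from 5.80 to 10.23 in WT tissue at 7 d.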
